A study of Mus musculus with 30 samples.

Results

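Tumours that carried the R222C form of the epidermal growth factor receptor EGFR were compared with tumours that carried the T263P form. All 3 libraries deposited for R222C were set against all 3 deposited for T263P, 6 of the 30 libraries of the series, and all genes were examined. Every mouse was sampled at postnatal day 70. The labels call the tissue cortical brain tumour, with glioblastoma as the disease state, and the EGFR variant is the only label that differs between the groups. Bulk tumour tissue was used, and polyadenylated RNA was sequenced from stranded TruSeq libraries. Library numbers of both groups lie between 24 and 32 (26, 31 and 32 for R222C, 24, 27 and 29 for T263P), as does that of R108K library 3 (28). The labels give neither the species of the introduced receptor sequence, its promoter nor the cells it was delivered to, and they name no sex and no batch. The series states that tumours came from 3 to 5 mice per variant but ties no library to an animal. If libraries shared an animal, p-values would measure a spread that is in part technical. The remaining 24 libraries were used for comparison levels and, in the fit, for the spread between tumours: 22 tumours of the same age label given the fluorescent protein mCherry (3), wild-type EGFR (3) or the variants R108G (3), R108K (4), A289I (5) and A289V (4), and 2 samples of normal cortex.

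EGFR is a receptor tyrosine kinase of the cell surface. Ligands such as transforming growth factor alpha bind its extracellular part, the receptor pairs with another receptor of its family, and the kinase then signals through adaptors such as GRB2 and SOS1 to RAS and the kinase ERK, and through PI3K. Glioblastomas often carry extra EGFR copies or missense changes of the extracellular part, and R222C (arginine to cysteine) and T263P (threonine to proline) are changes of that kind. Transcription factors of the ETV family and inhibitors of the DUSP and SPRY families are known transcriptional targets of ERK.

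The 6 libraries held 4013335 to 18534750 reads, the smallest being R222C library 1, so that 1 read corresponded to 0.0523 to 0.241 RPM. Levels are given as RPM, here reads divided by 1 size factor per library and by 1 common constant. Totals differ between libraries but average 1000000 over the 30. Differences are given as log2(RPM + 1) of R222C minus T263P. Glial markers were high in all 6, with Pdgfra, a receptor of oligodendrocyte precursors, at 352 to 1095 RPM. Libraries that stood apart were T263P libraries 1 and 2. T263P library 2 was the only one of the 6 with Y-linked transcripts beyond a few reads (Ddx3y 20.6 RPM, Xist 2.26 RPM), whereas Xist was 201 to 332 RPM and Ddx3y at most 0.105 RPM in the other 5. T263P library 1 had the lowest mean level of neuron markers of the 28 tumours. Distances between libraries, taken as the SD of the log2 difference over all tested genes, were 0.645 to 0.765 within R222C and 0.786 to 1.17 within T263P. Between the groups they were 0.608 to 0.973 with a median of 0.856. The closest pair of the 6 was R222C library 1 and T263P library 3, at 0.608, closer than any pair within a group. The SD over a group's 3 libraries was larger in T263P for 64.6% of genes.

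Egfr itself (mm10, chr11:16752203-16918158, plus strand) varied more within each group than between the groups. It was 98.4, 287 and 2790.0 RPM in R222C libraries 1, 2 and 3 and 938, 52.1 and 186 RPM in T263P libraries 1, 2 and 3. R222C library 3 had the highest level of all 28 tumours and T263P library 2 was near the mCherry tumours, which had 22.1 to 35.4 RPM. The exact Poisson 95% interval, which covers counting error only, was 47.1 to 57.5 RPM in T263P library 2 and 89.1 to 108.4 RPM in R222C library 1. Both groups overlapped with each other and with the wild-type EGFR tumours, at 115 to 393 RPM. The mean log2 difference was 1.03 ± 1.09 (SE, n = 3 against 3), and the two-sided exact permutation test over the 6 libraries gave p = 0.6, where 0.1 is the smallest p it can give. Without R222C library 3 the difference turned to -0.32, and without T263P library 2 it was 0.04. The mouse gene checks the labels only as far as the introduced sequence maps to it. Of its neighbours, Sec61g, a subunit of the protein translocation channel, lay between 82.3 and 139.8 RPM in all 6 libraries. Grb10, an adaptor that binds activated receptor kinases and lies farther off on the same chromosome, reached 157 RPM in R222C library 3, against 13.8 to 65.3 RPM in the other 5.

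**Figure D1:**
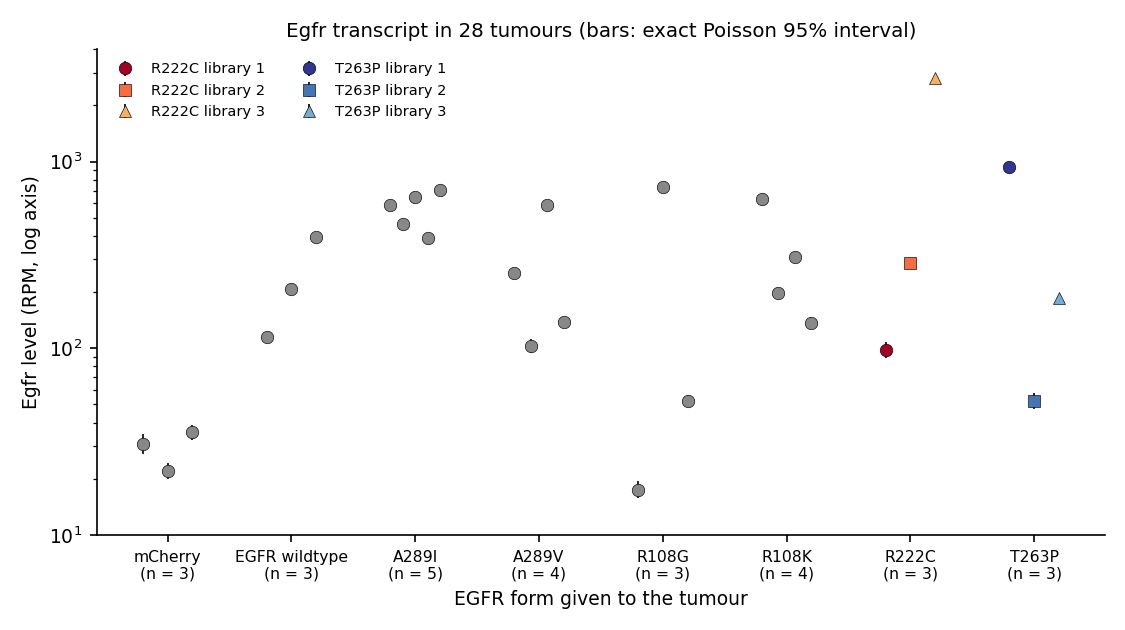
Egfr level in RPM on a log axis in each of the 28 tumours, by the form of EGFR given. Each point is 1 library with its exact Poisson 95% interval. The 3 R222C tumours span 98.4 to 2790.0 RPM and the 3 T263P tumours 52.1 to 938 RPM, and the groups overlap.

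No gene passed the threshold between R222C and T263P. Of 15824 genes tested with limma on all 30 libraries, 0 (0.0%) had an adjusted p under 0.05, the smallest adjusted p being 0.302. At an unadjusted p under 0.05 there were 788 genes (4.98%), 391 higher in R222C (2.47%) and 397 higher in T263P (2.51%). In 1272 genes (8.04%) the 3 values of one group lay entirely above those of the other, with R222C the higher in 642 (4.06%) and T263P in 630 (3.98%). The median difference over all genes was 0.01 and the median SE 0.35, so a typical 95% confidence interval reached 0.72 to either side of the estimate. A mean difference of at least 1, either way, was seen in 656 genes (4.15%). The quasi-likelihood test of edgeR on the recovered reads called 0 genes (970 at an unadjusted p under 0.05). DESeq2 called 18 (0.114%), 9 in each direction, and in 15 of these the highest of the 6 libraries was at least 3 times the next. The other 3 were Ptx3, Mfi2 and Il34.

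Ptx3 had the smallest p of the 12 named genes that were higher in R222C. The 12 were chosen on this contrast, so their values are a description. Ptx3, a secreted long pentraxin of innate immunity, was 20.3, 11.3 and 25.5 RPM in R222C and 1.55, 2.39 and 3.82 RPM in T263P. Its difference of 2.46 ± 0.49 (SE) had a limma adjusted p of 0.302, and the range of the other 22 tumours, 2.54 to 43.9 RPM, took in all 3 R222C values. Megf9, a membrane protein with EGF-like repeats, was 52.3, 116 and 352 RPM against 37.5, 41.995 and 33.9 RPM. R222C libraries 2 and 3 exceeded every one of the other 22 tumours for Megf9 (23.8 to 79.6 RPM), while library 1 was within their range. Bmp7, a ligand of the bone morphogenetic protein family, was 231, 85.2 and 123 against 54.03, 10.4 and 10.2 RPM. Its difference, 2.82 ± 0.77, was the largest of the 12. Il34, a ligand of the CSF1 receptor on which microglia depend, was 13.3, 36.6 and 52.9 against 7.94, 6.11 and 10.1 RPM. T263P library 2 was below all of the other 22 tumours for Il34 and R222C library 3 above them.

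Cybrd1, a ferric reductase of the plasma membrane, was 10.9, 13.2 and 15.9 RPM in R222C and 0.868, 3.59 and 4.39 RPM in T263P, and Mfi2, the iron-binding melanotransferrin, was 11.3, 8.65 and 3.79 against 0.682, 0.930 and 1.05 RPM. For Cybrd1 the R222C values lay inside the range of the other 22 tumours (2.94 to 30.3 RPM) and T263P library 1 below it. For Mfi2 the T263P values lay inside that range (0.377 to 7.80 RPM) and R222C libraries 1 and 2 above it. Iapp, which encodes islet amyloid polypeptide, was 2.41, 8.26 and 12.2 RPM in R222C and at most 1.05 RPM in T263P, so it was scarce throughout. Hoxd8, a homeobox gene, was 24.9 RPM in R222C library 2, the other 5 libraries having at most 1.93 RPM. Cyth3, an exchange factor for ARF GTPases, was 49.2, 77.7 and 72.96 against 22.5, 43.3 and 37.1 RPM, and all 3 R222C values exceeded those of the other 22 tumours (20.6 to 46.3 RPM). Celrr, Ssfa2 and AI464131 completed the 12, with differences of 1.57, 0.79 and 1.07. Over the 12 genes the adjusted p was 0.302 to 0.727.

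The 12 genes of smallest p that were higher in T263P showed differences of -1.95 to -0.71. Ctnnb1, which encodes beta-catenin of cell junctions and Wnt signalling, was 602, 494 and 543 RPM in R222C and 1005, 927 and 1153 RPM in T263P, a difference of -0.91 ± 0.24 (limma adjusted p = 0.667). Mapk6, the atypical kinase ERK3, was 50.2, 50.3 and 50.9 against 107.8, 118 and 78.4 RPM. The 3 R222C values for Mapk6 lay within 1 RPM of each other and below all of the other 22 tumours (58.2 to 123 RPM). Apex1, the endonuclease of base excision repair, was 12.1, 14.96 and 15.6 against 24.6, 38.7 and 34.5 RPM, and Senp6, a SUMO protease, was 65.6, 58.5 and 49.9 against 85.7, 111 and 89.9 RPM. Elovl4, an elongase of very long fatty acids, was 21.9, 14.8 and 14.1 against 38.1, 33.8 and 31.4 RPM. For Elovl4 and Senp6 the T263P values lay within or near the range of the other 22 tumours (19.9 to 63.7 and 64.02 to 102 RPM) and R222C libraries 2 and 3 below it. Anp32a, a histone chaperone, was 166, 149 and 133 against 309.3, 218 and 279 RPM. Brd8, a bromodomain protein of a histone acetyltransferase complex, was 59.3, 50.2 and 41.4 against 92.1, 136 and 69.8 RPM, and Bambi, a decoy receptor of the TGF-beta family, was 3.86, 6.86 and 4.07 against 11.2, 7.97 and 16.5 RPM. Bambi was apart only by the small gap between R222C library 2 and T263P library 2. Ttc5 and the helicase gene Pif1 differed by -0.92 and -1.40.

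In 2 of these 12, T263P library 1 was several-fold above every other tumour. Rabgap1l, an activator of Rab GTPases, was 25.1, 25.1 and 22.9 RPM in R222C and 363, 57.5 and 43.5 RPM in T263P. Sos1, the exchange factor that couples EGFR to RAS, was 46.3, 39.6 and 35.1 against 229, 73.1 and 55.4 RPM. Without T263P library 1 the differences were -1.01 for Rabgap1l, from -1.95, and -0.65 for Sos1, from -1.26. Of the 12 genes, 6 lie on chromosome 9 (Mapk6, Ctnnb1, Senp6, Elovl4, Anp32a and Pif1), and Ttc5 and Apex1 on chromosome 14, Brd8 and Bambi on chromosome 18.

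**Figure D2:**
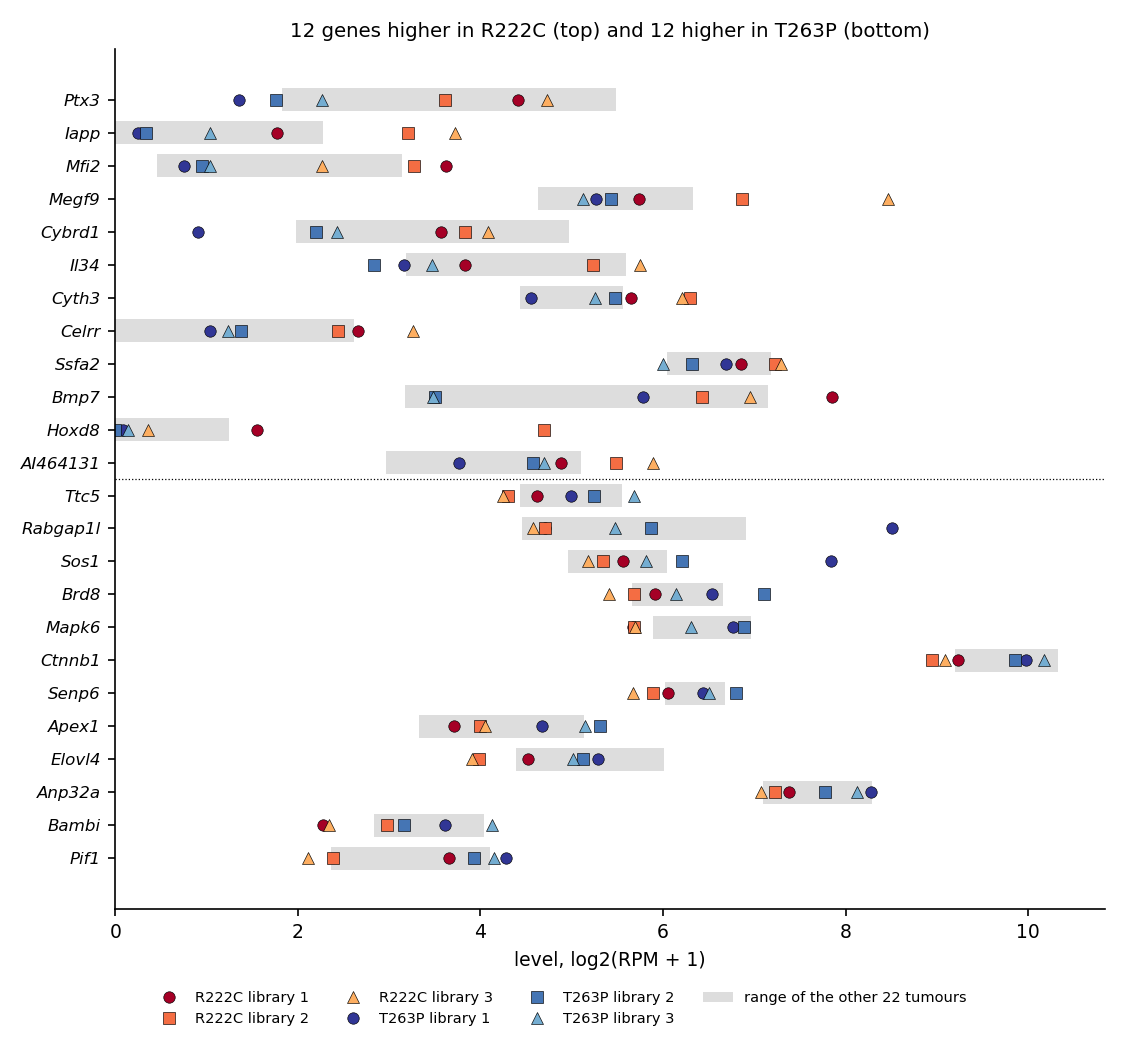
Levels, as log2(RPM + 1), of the 12 genes of smallest p higher in R222C (above the dotted line) and the 12 higher in T263P, in each of the 6 libraries. Grey bars span the other 22 tumours. The groups are apart for each gene because the genes were chosen so, and Rabgap1l and Sos1 show T263P library 1 far above the rest.

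After these positions were seen, levels were taken by chromosome. For each of 10771 genes with a position and a mean of at least 10 RPM, the difference of each library from the median of the 28 tumours was computed, and the median was taken over the genes of each chromosome. The 5 chromosomes with the largest median differences were 14, 9 and 18, lower in R222C, and 4 and 5, higher. The direction of single genes leaned as strongly on some others: only 78 of 381 genes of chromosome 19 and 104 of 364 of X were higher in T263P, whereas 255 of 335 of chromosome 16, 329 of 502 of chromosome 10 and 347 of 531 of chromosome 17 were higher in T263P. Single tumours stood farthest out with the lean on some of these, T263P library 2 at -0.65 on chromosome 19, R222C library 1 at 0.43 on X and R222C library 2 at -0.46 on chromosome 16. On chromosome 10 the farthest, T263P library 1 at -0.52, ran against the lean. There T263P libraries 2 and 3 were at 0.26 and 0.17 and R222C libraries 1, 2 and 3 at -0.06, -0.45 and 0.16. On chromosome 9 (594 genes) the medians were -0.22, -0.39 and -0.28 in R222C libraries 1, 2 and 3 and 0.23, -0.15 and 0.01 in the T263P libraries. The groups did not overlap, 78.3% of the genes were lower in R222C and the median difference was -0.28. Genes higher in T263P at an unadjusted p under 0.05 were 3.11% of the 10771, and 91 of 594 (15.3%) on chromosome 9, 70 of 370 (18.9%) on chromosome 14 and 30 of 270 (11.1%) on chromosome 18. On chromosome 2 they were 58 of 869 (6.67%), at a median difference of -0.05. Genes higher in R222C were 2.1% of the 10771, and 41 of 673 (6.09%) on chromosome 4 and 34 of 735 (4.63%) on chromosome 5. The genes of 1 chromosome in 1 tumour are not independent, so these shares carry no test.

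On chromosome 18 the medians were -0.35, -0.37 and -0.46 in R222C and 0.19, -0.19 and -0.33 in T263P, again without overlap but with T263P library 3 close to R222C. On chromosome 14 they were -0.33, -0.39 and 0.04 in R222C and 0.26, 0.01 and 0.10 in T263P, where R222C library 3 lay among the T263P tumours. On chromosome 4 they were 0.10, 0.04 and 0.35 against -0.03, -0.03 and 0.05, with R222C library 3 the highest, and on chromosome 5 0.29, 0.35 and -0.05 against -0.04, 0.20 and -0.03. Group levels were apart on chromosomes 9, 17 and 18 among 20, and the difference on chromosome 17 was -0.11. Median differences were -0.32 for chromosome 14, -0.26 for chromosome 18, 0.18 for chromosome 4 and 0.18 for chromosome 5, and at most 0.175 either way on the other 15.

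Some of these levels differed between the ends of a chromosome. On chromosome 9, R222C library 3 had a median of 0.15 over the 260 genes before 60 Mb and -0.54 over the 334 genes after it, while R222C libraries 1 and 2 were low on both sides (-0.21 and -0.42 before, -0.23 and -0.36 after). On chromosome 14, T263P libraries 2 and 3 were at 0.31 and 0.36 over the 228 genes before 60 Mb and at -0.48 and -0.47 over the 142 after it. R222C libraries 1 and 2 were low on both sides there as well, at -0.37 and -0.40 before and -0.25 and -0.36 after. A chromosome median of at least 0.25 either way was found on 1 to 7 chromosomes per tumour among the 6, with a median of 4.5, and on 0 to 7 among the other 22, with a median of 1.5. Of those 22, the tumours with library numbers 20 to 34 had higher counts in part. These were 1, 2 and 1 in A289V libraries 2, 3 and 4, 4 in wild-type EGFR library 3, and 4 and 7 in R108K libraries 3 and 4. A part of library series in this contrast was not tested. The variant and these tumour-by-tumour levels cannot be told apart in 3 tumours against 3, and DNA copy number was not measured. With the chromosome medians of each library subtracted, the 6 named genes of chromosome 9 kept their direction at smaller differences, -0.64 for Mapk6, -0.58 for Ctnnb1, -0.38 for Senp6, -0.67 for Elovl4, -0.50 for Anp32a and -1.07 for Pif1, against -0.97, -0.91, -0.71, -1.003, -0.83 and -1.40 without. The value subtracted was that of the whole chromosome, -0.28 in R222C library 3, which was at -0.54 after 60 Mb. A level that differed between the ends was therefore not fully removed.

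**Figure D3:**
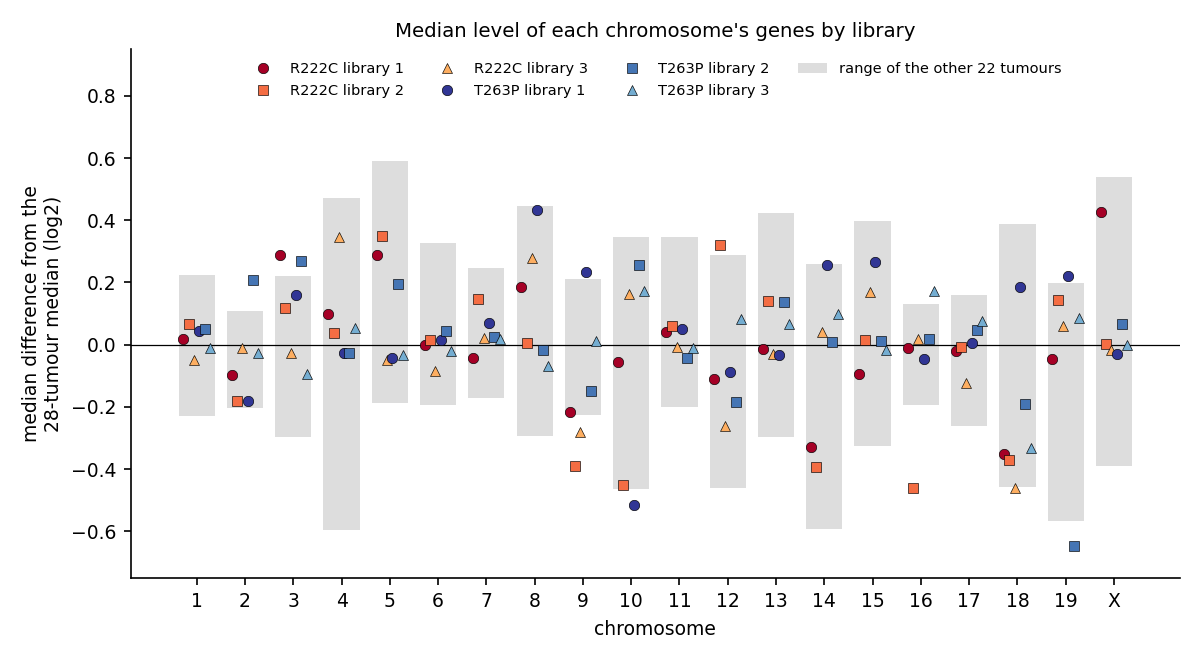
Median log2 difference from the 28-tumour median over the genes of each chromosome, for each of the 6 libraries, with grey bars for the range of the other 22 tumours. On chromosome 9 the 3 R222C tumours lie at -0.39 to -0.22 and the 3 T263P tumours at -0.15 to 0.23.

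Neighbouring genes were also high or low together over much shorter stretches, most of them in single tumours. Windows of 7 neighbouring genes whose median differed by at least 1.5 from the tumour median were found 24 times, 8 above it (raised) and 16 below it (lowered). R222C libraries 1 and 2 had none, R222C library 3 had 4, T263P libraries 1, 2 and 3 had 7, 12 and 1. The lowest window median, -3.98, was that of the MHC class II genes on chromosome 17 of R222C library 3. The highest, 2.82, lay elsewhere on chromosome 17 in T263P library 1, where Nfkbie, Slc35b2, Hsp90ab1, Slc29a1, Tmem63b, Mrpl14 and Vegfa were all raised by 2.38 to 2.95 (log2). Tmem151b just before them was at -2.23 and Mrps18a just after them at 0.57. Hsp90ab1, an abundant chaperone that holds kinases such as EGFR in an active fold, had 15670.1 RPM in T263P library 1, against 2071 to 2478 RPM in the other 5 and at most 3551 RPM in the other 22 tumours. Vegfa, the growth factor of blood vessels, had 785 RPM there and 41.2 to 209 RPM in the other 5. The window's median in the other 5 libraries was between -0.18 and 0.20.

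Sos1 lay in a second raised stretch of the same chromosome and tumour. From Atl2 to Tmem178, 9 neighbouring genes were raised by 1.06 to 3.07, Sos1 by 2.29, between Cdc42ep3 at -0.30 and Slc8a1 at -0.55. In R222C library 3 a stretch of chromosome 4 held Tnc (2.22), Brinp1 (2.38), Cdk5rap2 (1.80) and Megf9 (3.01), with Astn2 and Trim32 between them at 0.30 and 0.42. Another held Ubap1, Nudt2, AI464131, Cntfr, Il11ra1 and Rpp25l, each at 1.54 to 2.04. Megf9 and AI464131 are thus both among the 12 genes higher in R222C and in stretches raised in 1 R222C tumour. Without R222C library 3 their differences were 1.03 and 0.84, against 1.75 and 1.07 with it. In T263P library 3 a stretch of chromosome 11 held Pfas, Ctc1, Tmem107 and the mitotic kinase Aurkb, the last at 206 RPM against 19.05 to 53.6 RPM in the other 5. Of the 12 stretches of T263P library 2, 11 were lowered, and most of those held families induced by interferon, such as the Ifit genes (-3.55 for Ifit3), Gbp genes (-2.73 for Gbp2), Irgm1 and its neighbours (-2.13), Slfn genes (-2.12 for Slfn8) and Oas genes. The Oas cluster also formed a raised stretch in R222C library 3, with Oas2 at -2.05 in T263P library 2 and 3.20 in R222C library 3. T263P library 2 had 1 raised stretch, on chromosome 2. It held zinc finger genes from Gm14305 to Zfp931, whose similar copies may share reads, and also Phactr3 (1.88) and Fam217b (1.53). The rise was wider than this stretch. Medians over bins of chromosome 2 between 150 and 190 Mb were 0.53 to 0.91 in T263P library 2 and 0.31 to 0.40 in T263P library 3.

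**Figure D4:**
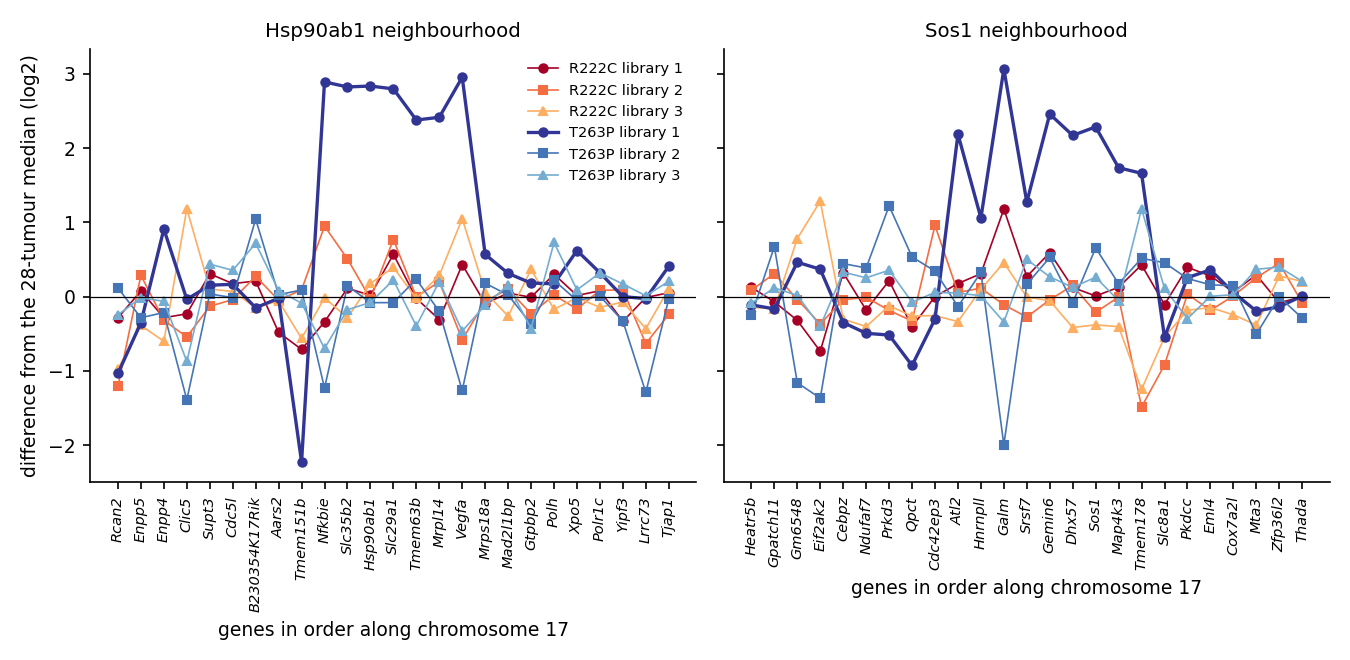
Log2 difference from the 28-tumour median of 25 neighbouring genes around Hsp90ab1 (left) and around Sos1 (right) on chromosome 17, for each of the 6 libraries. In T263P library 1 the level steps up to 2.38 to 2.95 from Nfkbie to Vegfa and to 1.06 to 3.07 from Atl2 to Tmem178, and the neighbours on either side lie between -2.23 (Tmem151b) and 0.91 (Enpp4).

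Gene lists were then described by their counts and medians. Of 553 listed genes tested, 0 passed and 37 (6.69%) had an unadjusted p under 0.05, beside 4.98% of all genes. That share of 4.98% is to be set beside each count of such genes per list below. A higher mean in R222C was seen for 51.6% of all genes, and in T263P for 48.4%.

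Receptors of the EGFR family differed by tumour more than by group. Of the 4 receptors 3 were higher in R222C, with a median of 0.94, or 0.11 without T263P library 2. Erbb2, which has no ligand of its own and pairs with the others, was 3.62, 12.3 and 9.71 RPM in R222C and 5.09, 1.59 and 2.56 RPM in T263P (1.18 ± 0.58). Erbb3, a neuregulin receptor with a weak kinase, was 71.4, 173 and 85.9 against 118, 12.2 and 119 RPM, and T263P library 2 was the low one. Erbb4, another neuregulin receptor, was 6.51, 5.13 and 3.51 against 4.16, 23.8 and 4.29 RPM, where T263P library 2 was the high one. Among the ligands, Tgfa (named here after its values were seen) was 95.98, 209.6 and 154 against 146, 122 and 119 RPM and Hbegf 38.1, 36.998 and 36.9 against 48.1, 22.9 and 26.04 RPM. Both ligands overlapped between the groups, and the 9 ligands tested of 11 had a median difference of 0.18. Of the 14 adaptors and attenuators, 5 were higher in R222C. Errfi1, a feedback inhibitor of the EGFR kinase, was 24.8, 27.3 and 91.8 against 24.3, 13.2 and 23.6 RPM, and the groups were apart only by the narrow gap between R222C library 1 and T263P library 1.

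ERK targets were higher in R222C on average, though the groups overlapped. Of 16 genes of ERK feedback, 15 had the higher mean in R222C, the median difference was 0.70 and 1 had an unadjusted p under 0.05. Etv5, an ETS transcription factor, was 179, 262 and 310.4 against 146, 179.9 and 106 RPM (0.79 ± 0.31, limma unadjusted p = 0.0169). Dusp6, a phosphatase of ERK, was 68.003, 128 and 285 against 83.1, 31.5 and 59.5 RPM, and Spry1, an inhibitor of receptor signalling, 72.8, 177 and 143 against 115, 39.9 and 35.98 RPM. The mean log2 level of the list was 4.74, 5.43 and 6.17 in R222C and 5.15, 4.66 and 4.67 in T263P. It was highest in R222C library 3 and then R222C library 2, in the order of Egfr within R222C. Over all 6 the order differed, since T263P library 1 had more Egfr than R222C library 2 but a lower list level. A link with the Egfr level was not tested. Without R222C library 3 the list's median was 0.22. Of the 13 immediate early genes, the first transcripts that growth factors and tissue handling induce, 10 were higher in R222C with a median of 0.73 and 4 at an unadjusted p under 0.05, beside 4.98% of all genes. The groups were apart in 3 of the 13, beside 8.04% of all genes. Egr1 was 72.6, 103 and 204 against 55.9, 12.9 and 59.9 RPM, Junb 56.9, 63.4 and 242 against 78.5, 13.2 and 52.6 RPM and Fos 83.9, 129 and 103 against 71.1, 11.6 and 67.8 RPM. T263P library 2 was the lowest library for Egr1, Junb and Fos, and with library weights the list's median was -0.02.

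Other receptor tyrosine kinases had a mean level that did not overlap, 6.18, 6.21 and 6.10 in R222C and 5.58, 5.59 and 5.85 in T263P, with 12 of 15 higher in R222C and a median difference of 0.26. Without Met, described last, the 14 other genes had mean levels of 5.99, 6.49 and 6.33 against 5.78, 5.88 and 6.09, and the groups overlapped. Of 38 lists, 4 had mean levels that did not overlap (this list, oligodendrocyte precursors, B and plasma cells and meningeal fibroblasts), and 8.04% of all single genes were apart in the same way. Fgfr1, a fibroblast growth factor receptor, was 102, 319 and 151 against 96.8, 48.1 and 90.9 RPM (1.17 ± 0.46), and its relative Fgfr3 123, 229.9 and 118 against 71.3, 72.7 and 83.7 RPM. Axl, the receptor of GAS6, was 157, 474 and 312 against 389, 96.4 and 117 RPM and overlapped. Met, the receptor of hepatocyte growth factor, was 437, 4.30 and 6.57 against 5.83, 1.99 and 4.97 RPM and is named after its values were seen. It was high in R222C library 1, the R222C tumour with the least Egfr.

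Interferon-induced genes showed the widest range of the lists. The type I interferon list (20 genes), whose products sense and block viruses, had mean log2 levels of 5.49, 5.79 and 8.25 in R222C and 6.84, 3.86 and 5.78 in T263P. R222C library 3 was above all of the other 22 tumours (at most 7.17) and T263P library 2 below all of them (at least 4.16). In the list, 19 of 20 genes were higher in R222C, the median was 1.13 and 2 had an unadjusted p under 0.05, Ifit3 and Ddx58. The median was 0.13 without T263P library 2 and 0.20 without R222C library 3. All 15 interferon-inducible GTPases of the GBP and IRG families, which attack the vacuoles of microbes, were higher in R222C with a median of 0.74, which became -0.06 without T263P library 2. Many of these GTPases are similar copies between which reads may be shared.

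The promoters of 6 of these genes are shown because both lists were lowest of the 6 in T263P library 2 and lost most of their median difference without it. The type I list was highest in R222C library 3, and the GTPase list in T263P library 1 (9.19) and then R222C library 3 (8.93), inside the range of the other 22 tumours (5.87 to 9.47) as was T263P library 2 (6.03). RefSeq windows (GRCm38.p6, 250 bases upstream of the gene start) held a match to TTTCNNTTTC, the core of the element bound by interferon-activated factors, on either strand (GAAANNGAAA on the other) in 936 of 27025 genes (3.46%). It was found in 8 of the 15 matched genes of the type I list (53.3%), in all 9 matched interferon-inducible GTPases and in 0 of the 10 matched ERK targets. A match describes letters, not binding. Each sequence runs 5′ to 3′ along the gene, with 1 match in capitals, the nearest to the start among matches that do not overlap. In Gbp3 a further match overlaps the capitals and ends nearer the start.
Isg15 (chr4:156200845-156200914, minus strand): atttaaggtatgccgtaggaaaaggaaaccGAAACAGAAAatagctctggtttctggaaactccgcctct
Ifit3 (chr19:34583377-34583446, plus strand): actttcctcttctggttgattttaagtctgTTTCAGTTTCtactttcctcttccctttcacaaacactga
Ifit1 (chr19:34640774-34640843, plus strand): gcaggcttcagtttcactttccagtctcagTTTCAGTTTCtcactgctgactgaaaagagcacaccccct
Gbp2 (chr3:142620574-142620643, plus strand): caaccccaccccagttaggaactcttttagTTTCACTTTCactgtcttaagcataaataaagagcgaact
Gbp3 (chr3:142559969-142560038, plus strand): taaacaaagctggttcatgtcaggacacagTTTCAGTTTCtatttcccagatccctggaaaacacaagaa
Tgtp2 (chr11:49064243-49064312, minus strand): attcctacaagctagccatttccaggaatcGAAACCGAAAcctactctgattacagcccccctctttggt

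Isg15, the ubiquitin-like modifier, was 95.01, 139.7 and 1269 RPM in R222C libraries 1, 2 and 3 and 269, 17.01 and 113 RPM in T263P libraries 1, 2 and 3. Ifit3, which works with Ifit1 on viral RNA, was 86.8, 170.0 and 685 against 177, 13.4 and 76.9 RPM (1.89 ± 0.78, limma unadjusted p = 0.0233). Ddx58, the RNA sensor RIG-I, was 59.6, 85.04 and 601 against 99.4, 19.3 and 68.6 RPM. In each of these 3 genes R222C library 3 was several-fold the highest and T263P library 2 the lowest. Ifit1, an RNA cap sensor, was 41.2, 61.7 and 335 against 75.7, 11.3 and 78.5 RPM. Tgtp2, an IRG family GTPase, had a different shape, 919, 1229 and 1003 against 1165, 188 and 774 RPM, with T263P library 2 low and the other 5 between 774 and 1229 RPM. Gbp4, a guanylate-binding protein, was 146, 229.9 and 822 against 557, 26.7 and 89.5 RPM. Of 18 chemokines 16 were higher in R222C with a median of 0.45, which was 0.05 without T263P library 2. Cxcl14 was 69.9, 159.8 and 128 against 29.5, 28.97 and 76.2 RPM, the smallest p of the chemokines (0.0011 in limma, unadjusted).

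Genes of antigen presentation were taken by class, and none of either class had an unadjusted p under 0.05. MHC class I genes, which display peptides from within the cell, had a median of 0.24, or -0.34 without T263P library 2. H2-K1 was 3119.9, 3651 and 2331 against 3038, 889 and 2786 RPM and H2-D1 1659, 2075 and 1603 against 1079.7, 513 and 1869.7 RPM, low in T263P library 2 in both cases. MHC class II genes, expressed by antigen-presenting cells, had a median of -0.33 with 1 of 9 higher in R222C. H2-Ab1 was 681, 1148 and 32.1 against 1939, 181 and 794 RPM and its chaperone Cd74 1531, 2195 and 51.05 against 3969.7, 505 and 1145 RPM. R222C library 3 was the lowest of the 6 for both, and the list's median was 0.43 without it. R222C library 3 had both the highest type I interferon level of the 28 tumours and a class II level (4.71) below all of the other 22 (at least 4.82). Against the tumour median, its H2-Ab1, H2-Aa and H2-Eb1 were at -4.39, -4.57 and -4.53. The class I peptide transporter genes Tap1 and Tap2 beside them were at 0.05 and -0.11. Its summed class II level was 836 RPM against 1707 to 10819 RPM in the other 5.

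Most mesenchymal and matrix genes had the higher mean in R222C, though the levels of both lists overlapped between the groups. Of 19 mesenchymal glioma genes tested, 18 were higher in R222C with a median of 0.95 and 4 at an unadjusted p under 0.05, beside 4.98% of all genes. The groups were apart in 3 of the 19, beside 8.04% of all genes. S100a11, a calcium-binding protein, was 64.4, 77.9 and 90.5 against 50.7, 29.1 and 37.02 RPM (0.999 ± 0.36), and Relb, a subunit of NF-kappaB, 18.6, 35.7 and 53.7 against 25.99, 8.90 and 14.2 RPM. The groups were apart for S100a11 and overlapped for Relb. The median of the list stayed between 0.60 and 1.45 as each library was left out. Its mean log2 level was 5.77, 6.57 and 6.61 in R222C and 6.24, 4.58 and 5.38 in T263P. T263P library 2 was below all of the other 22 tumours (at least 4.84), and T263P library 1 was above R222C library 1. Of 20 collagen and matrix genes 17 were higher in R222C, with a median of 1.05 that was 0.26 without T263P library 2. The mean log2 level of this list was 6.11, 6.99 and 6.60 against 6.60, 4.39 and 5.92. Here too T263P library 2 was below all of the other 22 tumours (at least 4.97). Col6a1 was 88.3, 375 and 173 against 86.4, 27.1 and 45.6 RPM and Col6a2, the neighbouring subunit gene, 57.6, 213 and 73.9 against 49.1, 22.2 and 21.02 RPM. Col5a2 was 44.6, 113 and 40.9 against 46.2, 3.99 and 8.16 RPM. For all of Col6a1, Col6a2 and Col5a2, R222C library 2 was the highest. Vcan, a proteoglycan that precursors also make, ran the other way at 658, 180.2 and 346 against 338, 1163 and 1624 RPM.

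Genes of mitosis all had the higher mean in T263P. In these 20 genes the median was -0.53. An unadjusted p under 0.05 was seen in 5, beside 4.98% of all genes. The groups were apart in 2, beside 8.04% of all genes. Aurkb, which lies in the stretch raised in T263P library 3, differed by -1.14, or -0.35 without that library. Tpx2, a spindle assembly factor, was 110.2, 49.8 and 66.9 RPM in R222C and 119, 158 and 231 RPM in T263P (-1.18 ± 0.36, limma unadjusted p = 0.00304). Ube2c, which marks mitotic cyclins for destruction, was 94.3, 38.4 and 40.5 against 104, 84.1 and 132 RPM and Aurka, the centrosomal kinase, 47.3, 17.2 and 26.8 against 49.5, 46.1 and 62.2 RPM. R222C library 1 was at the level of the T263P tumours for Ube2c and Aurka, and libraries 2 and 3 were lower. The mean log2 level of the list was 6.57, 5.44 and 5.47 in R222C and 6.57, 5.87 and 6.82 in T263P, and its median stayed between -0.93 and -0.32 as each library was left out. Of the 18 genes of the RB and p53 pathways, 2 had an unadjusted p under 0.05, and the median was 0.04. Cdkn2b, an inhibitor of CDK4 and CDK6, was 21.9, 34.4 and 199.9 against 12.03, 6.64 and 17.6 RPM, the highest again in R222C library 3.

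Markers of cell types varied by tumour. In bulk tissue, fewer cells of a type and less RNA per cell cannot be told apart. The 25 neuron markers summed to 1492, 1431 and 1105 RPM in R222C and 621, 1577 and 1827 RPM in T263P, all 25 being detected in all 6 libraries. Snap25, of the synaptic release machinery, was 141, 161 and 82.4 against 4.34, 170.0 and 184 RPM. T263P library 1 was below all of the other 22 tumours for the list, and the median of 0.32 became -0.52 without it. The 18 astrocyte markers had a median of 0.54, and -0.26 without T263P library 1. Aldoc, a glycolytic enzyme of astrocytes, was 739.6, 769 and 773 against 376, 352 and 493 RPM and Atp1b2, a sodium pump subunit, 488, 403 and 846 against 243, 286 and 411 RPM. For Aldoc all 3 R222C libraries were above all 3 T263P libraries, and for Atp1b2 R222C library 2 was just below T263P library 3.

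Most oligodendrocyte lineage markers were higher in T263P. Of 17 precursor markers 5 were higher in R222C, Cspg4, the proteoglycan NG2, by the most at 0.63. The mean level of the precursor markers did not overlap (8.07, 7.78 and 7.87 in R222C, 8.17, 8.40 and 8.21 in T263P), at a median difference of -0.18. Neu4, a sialidase, was 41.5, 21.5 and 26.8 against 92.2, 58.7 and 41.7 RPM, and Gpr17, a receptor of cells committed to the lineage, 512, 219.7 and 182 against 815, 734 and 463 RPM. Neu4 was apart by the gap between R222C library 1 and T263P library 3, and Gpr17 overlapped. Of 16 markers of myelinating cells 15 were higher in T263P with a median of -0.78, or -0.03 without T263P library 1 and 0.04 with library weights. The summed level of T263P library 1 was 13837 RPM against 1939 to 3719 RPM in the other 5. Bmp4 was 18.3, 6.08 and 16.5 against 31.4, 53.6 and 27.5 RPM and Enpp6, a marker of newly formed oligodendrocytes, 17.6, 2.18 and 2.03 against 89.6, 37.2 and 2.88 RPM.

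Plasma cell transcripts had lower values in R222C than in T263P, though none passed the threshold. Jchain, the joining chain of secreted antibodies, was 12.5, 18.4 and 0.925 against 117, 68.3 and 34.9 RPM (-3.06 ± 1.38, limma unadjusted p = 0.036), and Mzb1, a chaperone of antibody assembly, 0.241, 1.45 and 0.0925 against 17.1, 5.32 and 2.93 RPM. The 7 B and plasma cell markers summed to 15.2, 22.9 and 2.96 RPM in R222C and 144, 78.3 and 41.5 RPM in T263P. Jchain made up 12.5 of the 15.2 RPM of R222C library 1, and the Mzb1 value of that library was 1 read. None of the 6 tested was higher in R222C, and the groups were apart in 5, beside 8.04% of all genes. The smallest limma adjusted p of the 6 was 0.955. The B cell marker Ms4a1 had 0 reads in R222C library 1 and at most 0.532 RPM in the other 5, which is a few reads. T and NK cell markers summed to 40.3, 48.05 and 34.1 RPM in R222C and 151, 13.6 and 28.7 RPM in T263P, highest in T263P library 1. Markers of meningeal fibroblasts had mean levels apart (3.69, 4.94 and 3.77 against 3.13, 3.46 and 3.48), with R222C library 2 the highest. The list's median of 0.33 became -0.15 without T263P library 1. Mgp, a matrix protein that inhibits calcification, was 107, 2201 and 47.8 against 130.3, 16.6 and 14.96 RPM and Lum, the proteoglycan lumican, 8.68, 72.5 and 11.1 against 5.83, 0.532 and 1.36 RPM. Whether these cell type markers account for part of the differences in the other lists was not tested.

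**Figure D5:**
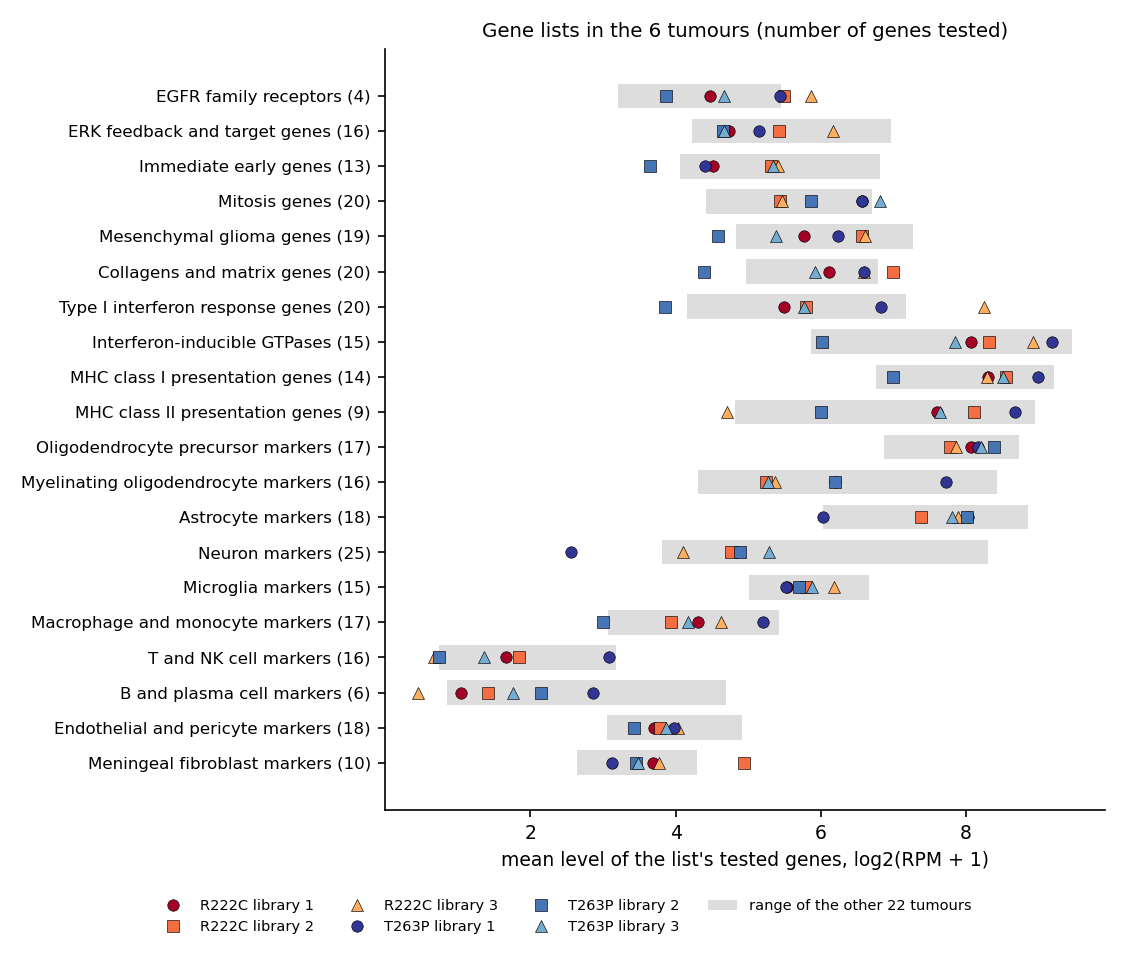
Mean level of the tested genes of 20 lists, as log2(RPM + 1), in each of the 6 libraries, with grey bars for the range of the other 22 tumours. R222C library 3 reaches 8.25 for the type I interferon list, T263P library 2 lies at 3.86 for it, and T263P library 1 lies at 2.56 for the neuron list.

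Further lists were described by counts and medians alone. Of 14 genes of the unfolded protein response 12 were higher in R222C (median 0.38, or 0.04 without R222C library 3). Of 15 genes of hypoxia and glycolysis 13 were higher in R222C (0.22, or -0.01 without T263P library 2). The mean log2 level of the hypoxia list was nonetheless highest of the 6 in T263P library 1, at 7.07. Of 16 genes of cholesterol synthesis 3 were higher in R222C (-0.14, or 0.15 without T263P library 1). Of 20 genes of DNA replication 5 were higher in R222C (-0.14, or 0.06 without T263P library 3). Notch pathway genes (0.05) and regulators of neural stem and glial fate (0.03) were near the median of all genes. Of 38 lists beside that of sex-linked genes, 19 had a median within 0.25 of 0 (-0.18 to 0.24), among them the PI3K and mTOR pathway (0.01), cytosolic ribosomal proteins (-0.06), complement (0.00), microglia (0.15) and macrophages (0.05). Over the 39 lists, the medians of 14 kept their sign whichever of the 6 libraries was left out.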

How the data were processed

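The authors' deposited tables give a signal per gene and library: by their values, gene read counts divided by 1 size factor per library. They are named RPM and the design assumed that, but they sum to 9311872 to 12036037 per library. With 1 constant per library removed, 100% of values were whole reads to within 0.05. Values were divided by 10.3 in all libraries and called RPM. Per the submitters' processing notes, FastQC, STAR 2.5.0a, DESeq2 1.20.0 and mm10 were used, without roles. Strand use in counting is not given in the sources used here.

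The 24421 genes listed include 3274 without a read and 27 names turned into dates. Those reaching 1 RPM in 3 or more libraries entered the test, limma 3.58.1 on log2(RPM + 1) (R 4.3.3, eBayes with trend and robust, 9 group means, 30 libraries, two-sided), with Benjamini-Hochberg adjustment over all of them at a threshold of 0.05. edgeR 4.0.16 and DESeq2 1.42.0 on recovered reads, other pseudocounts, filters, scalings and sets of libraries, and each library left out were alternatives. The test was also run on simulated counts with independent genes, the same dispersion for every gene and no outlying tumours. That setting differs from these libraries, so it does not show how the test behaves on them. Egfr was always named, with the 12 genes of smallest p per direction among genes whose groups did not overlap and whose mean was at least 5 RPM in the higher group, up to 4 members of smallest p per list, and the ends and largest differences of stretches. Predicted loci and sex-linked genes were passed over. Tgfa, Met, Ifit1, Pdgfra, other genes inside stretches and the single-tumour genes were named after their values were seen, as were the chromosome medians, the chromosome-centred fit and the alternatives for distances. Members and lists were chosen with earlier results of these data known. Positions came from GENCODE M21 on mm10 (96.1% of tested genes). Tables were made in Python 3.11.15 (pandas 2.3.3, numpy 2.4.6, scipy 1.17.1) and plots in matplotlib 3.10.9.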

Additional observations from a re-analysis of the deposited data

How the results depend on the processing

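The count of 0 genes past the adjusted threshold held under 0.1 RPM as pseudocount, no filter, a 5 RPM filter, TMM rescaling, library weights, other sets of libraries in the fit, edgeR and subtraction of chromosome medians (559 to 1355 genes at an unadjusted p under 0.05 over these). DESeq2 called 18 genes, 3 of them listed genes (Sos1, Ddx3y and Eif2s3y). Leaving out 1 library gave 0 to 2 calls: Megf9 and Iapp without R222C library 1, Rec8 without T263P library 2, Vax1 and Ipw without T263P library 3. For Egfr the range over left-out libraries was -0.32 to 2.11, negative only without R222C library 3. The other reversals came from 1 library each except for Vegfa. Over left-out libraries Erbb3 was at -0.21 to 1.38, Erbb4 at -0.95 to 0.18, Tgfa at -0.076 to 0.48, Cd74 at -2.23 to 0.47, H2-Aa at -2.43 to 0.26, H2-Ab1 at -2.12 to 0.43, H2-Eb1 at -2.21 to 0.50, Snap25 at -0.52 to 2.04, Camk2a at -0.47 to 2.18, Hsp90ab1 at -1.32 to 0.13 and Vegfa at -0.95 to 1.16, where library weights gave 0.43. The removal of 1 library is the cause by construction, and for the weights the cause was not tested. The median distance between the groups was 1.12 with a pseudocount of 0.1 RPM. Stretches numbered 11 with windows of 11 genes and 81 at a difference of 1. The median differences of chromosomes 4, 5, 9, 14 and 18 kept their sign in all alternatives. Leaving out each library, chromosome 4 gave 0.09 to 0.24, chromosome 5 0.11 to 0.31, chromosome 9 -0.37 to -0.23, chromosome 14 -0.47 to -0.19 and chromosome 18 -0.36 to -0.15. Over the 88 genes followed, 1468 of 1490 alternative values kept direction and side of the threshold, and 685 of 707 list medians moved by less than the spread between replicates. No paired analysis was possible because the library numbers are unique to each library and pair none. The smallest library, with 4013335 reads, limits what can be said of genes near 1 RPM.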

Other observations

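Genes at 20 RPM or more in 1 tumour and at least 4 times the next of the 28 tumours (1 RPM added to the latter) were counted after the data were seen. R222C libraries 1, 2 and 3 had 2, 9 and 11, and T263P libraries 1, 2 and 3 had 6, 3 and 5, against 0 to 15 in the other 22 tumours. In R222C library 3 they included Enpp3, an ectonucleotidase, at 318 RPM with no other tumour above 8.04 RPM, Osr1, a zinc finger transcription factor, at 137 RPM with none above 1.14 RPM, and Retnlb, a secreted resistin-like protein, at 39.9 RPM with none above 0.0780 RPM. R222C library 2 had Mgp at 2201 RPM, Ptpn12, a tyrosine phosphatase, at 472 RPM and Ppp1r7 at 598 RPM. In R222C library 1 the peroxisome gene Pex11g was at 171 RPM, with 9.43 RPM in the next tumour.

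T263P library 3 had Nek1, a kinase of cilia and DNA repair, at 578 RPM against at most 39.5 RPM, and Zic1, a transcription factor of the cerebellum and dorsal brain, at 217 RPM against 24.5 RPM. Col10a1, a collagen of growth plate cartilage, was at 69.9 RPM in T263P library 2 and at most 1.605 RPM elsewhere. T263P library 1 carried Snrpn, a paternally expressed imprinted gene, at 35.9 RPM, with 7.42 RPM in the next tumour and at most 0.0925 RPM in the R222C tumours. These are single tumours with no replicate check.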
